A study of Rattus norvegicus with 8 samples.

Results

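The genes Grin1, Grin2a, Grin2b, Grin2c and Grin2d encode the GluN1 and GluN2 subunits of the NMDA receptor, and their transcripts were followed in rat brain after a single exposure to isoflurane. They were chosen by gene symbol alone. Every probe set that the platform's annotation table assigned to one of these 5 genes was taken, which gave 11 of the 8740 probe sets that are not controls. Grin1 had 4 probe sets, Grin2a, Grin2c and Grin2d had 2 each, and Grin2b had 1. All 11 lay above the intensity floor on at least 2 arrays and were tested.

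Total RNA of whole rat brain was hybridised to 8 short-oligonucleotide arrays, 1 per sample. Every rat was intubated. The 3 control samples came from rats under isoflurane, a volatile anaesthetic, for 3 min, with perfusion of cold saline directly afterwards. The exposed samples came from rats given 2% isoflurane, 2 samples after 1 hr and 3 after 2 hr, and for these the labels mention no perfusion. No group free of isoflurane was analysed here. The labels name no strain, sex or age, and no animal number, so the p-values reflect only how these samples vary, which may be partly technical.

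The NMDA receptor is a glutamate-gated cation channel that carries calcium into neurons when glutamate and the co-agonist glycine or D-serine are bound and magnesium block is relieved by depolarisation. GluN1, the product of Grin1, is present in every NMDA receptor and binds the co-agonist, while the GluN2 subunits bind glutamate and set how long the channel stays open. In the adult brain Grin2a and Grin2b prevail in the forebrain, Grin2c in cerebellar granule cells and Grin2d in the diencephalon and brainstem. Volatile anaesthetics such as isoflurane inhibit the receptor, and the comparisons asked whether the subunit transcripts differed after 1 hr or 2 hr of anaesthesia.

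Transcripts were read as 1 linear intensity per probe set and array. The intensity of a probe set depends on its probes, so levels are compared between arrays for 1 probe set and not between probe sets. The lower limit used in the tests, called the floor, was an intensity of 9.1, the 20th percentile of all values. In whole brain RNA, fewer cells of a type and less RNA per cell cannot be told apart. Of 10 neuron markers 7 were on the array and each lay above the floor on most arrays. Their summed intensity ran from 3566 to 6130 on the control arrays, 4224 to 4351 after 1 hr and 3286 to 5572 after 2 hr. The 4 measured markers of cerebellar granule and Purkinje cells summed to between 702 and 929 in the controls, 831 and 867 after 1 hr and 592 and 909 after 2 hr. For both lists the range of the control arrays overlapped that of each exposed group. Control replicate 3 stood apart from the other controls in regional markers. The 5 measured striatal markers summed to 479.5, 803.4 and 4340 on control replicates 1 to 3, against 750 to 1163 after 1 hr and 496 to 1883 after 2 hr. The 5 measured forebrain projection neuron markers summed to 8821, 9032 and 3477 in the controls, against 5157 to 7117 and 3913 to 7696. Of these 5, Egr3 lay at or under the floor on at least 4 arrays. Another array that stood apart was 2 hr replicate 2. Its 6 measured astrocyte markers summed to 6823, against 10043 to 16940 in the controls and 11598 to 14046 after 1 hr. The 3 microglia markers summed to 803, against 421 to 532.5 and 417 to 456. The 5 oligodendrocyte markers summed to 5190, against 7407 to 10781 and 6757 to 8922. The lowest 2 hr sums of the neuron, cerebellar and forebrain lists were also on this array, as was the highest 2 hr striatal sum of 1883. The part of these markers in the subunit readings was not tested.

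Grin1 was read by 4 probe sets that did not give 1 picture. The brightest, S39221_g_at, read 163, 55.4 and 134.3 on control replicates 1 to 3, 158.5 and 113.2 after 1 hr, and 97.6, 151.8 and 117.2 after 2 hr. The lowest and the highest of the 8 readings were both controls, so the exposed arrays lay within the control range. On the log2 scale the control mean was 6.74 ± 0.83 (SD, n = 3), against 7.07 ± 0.34 (SD, n = 2) after 1 hr and 6.91 ± 0.32 (SD, n = 3) after 2 hr. The change was 0.33 at 1 hr (95% interval -0.73 to 1.39) and 0.17 at 2 hr (95% interval -0.77 to 1.12). Without control replicate 2, the lowest array, the 2 hr change was -0.30 and the 1 hr change -0.14. The 3 arrays with the highest single intensities of any probe set were control replicate 3, 1 hr replicate 1 and 2 hr replicate 3, with 23009 to 37712 against 3504 to 12445 on the other 5. Within these 3 the 2 hr change was -0.20, and within the other 5 it was 0.36.

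U11418_s_at, also of Grin1, was the least steady reading among the subunits. Its controls read 153.4, 200.9 and 7.7, its 1 hr arrays 33.3 and 81.3, and its 2 hr arrays 150.5, 75.8 and 56.1. Control replicate 3 was therefore below the floor on a probe set where the other controls were the highest of all 8 arrays. Control replicate 3, 1 hr replicate 1 and 2 hr replicate 3 were the lowest of their groups, and these are the 3 arrays of highest top intensity. Their part in this reading was not tested.

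The remaining Grin1 probe sets were dim. L19708_at read 22.3, 36.9 and 52.6 in the controls, 37.5 and 34.4 after 1 hr and 17.5, 50.5 and 13.5 after 2 hr. S39221_at read 33.1, 18.1 and 8.2, then 22 and 14.3, then 6.2, 18.5 and 11.2, and lay under the floor on control replicate 3 and 2 hr replicate 1. For both probe sets the 2 hr arrays overlapped the controls. At 2 hr, 1 of these 3 further Grin1 probe sets had the sign of the brightest one and 2 had the opposite sign.

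Grin2a, whose product gives the receptor fast closing kinetics, had its own highest reading on a 1 hr array. AF001423_at read 73.5, 60.3 and 116.8 in the controls, 251.1 and 119.3 after 1 hr, and 104.8, 171.6 and 54.2 after 2 hr. The 1 hr arrays lay above all controls, the lower of them by a narrow margin, whereas the 2 hr arrays spanned the control range. Mean log2 intensity was 6.33 ± 0.49 (SD, n = 3) in the controls, 7.44 ± 0.76 (SD, n = 2) after 1 hr and 6.63 ± 0.83 (SD, n = 3) after 2 hr. The 1 hr level was 2.16-fold the control level, a log2 change of 1.11 with a 95% interval of -0.10 to 2.32, and did not pass (limma, unadjusted p = 0.0689, adjusted p = 1). Without 1 hr replicate 1 the change was 0.57. It was 1.10 within the 3 arrays of highest top intensity (1 against 1) and 0.84 within the other 5 (1 against 2). Among the arrays without a low 5S ribosomal RNA control reading, which hold both 1 hr arrays and 1 control, it was 0.57. The 6 pituitary markers were all on the array, with Tshb at or under the floor on at least 4 arrays. Their summed intensity was 286.5 and 514.3 on 1 hr replicates 1 and 2, against 244.6, 251.2 and 245 in the controls. On 2 hr replicates 1 to 3 it was 231.9, 907 and 229.3. The higher 1 hr sum was on replicate 2, where AF001423_at read 119.3. The part of these markers in the Grin2a reading was not tested.

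At 2 hr the Grin2a change was 0.30 (95% interval -0.78 to 1.39), and the test of 2 hr against 1 hr gave -0.80 (95% interval -2.02 to 0.41). Within the 3 arrays of highest top intensity the 2 hr change from control was -1.11, and within the other 5 it was 1.01. It was -0.091 without 2 hr replicate 2 and 0.74 without 2 hr replicate 3. The second Grin2a probe set, D13211_s_at, was dim. It read 11.7, 16.6 and 24.2 in the controls, 36.3 and 14.9 after 1 hr, and 14.9, 13.3 and 9.9 after 2 hr. Its highest reading was on the same array as that of AF001423_at, 1 hr replicate 1, but its 1 hr and control arrays overlapped.

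Grin2b, the other main GluN2 subunit of the forebrain, was the steadiest of the 11 readings. U11419_at read 146, 138.2 and 109.6 in the controls, 140.7 and 145.8 after 1 hr, and 123.3, 139 and 102.9 after 2 hr. The highest array was only 1.42-fold the lowest, and the lowest arrays were control replicate 3 and 2 hr replicate 3. Mean log2 intensity was 7.03 ± 0.22 (SD, n = 3), 7.16 ± 0.04 (SD, n = 2) and 6.92 ± 0.22 (SD, n = 3) in the controls, after 1 hr and after 2 hr. The change was 0.14 at 1 hr (95% interval -0.53 to 0.80), -0.11 at 2 hr (-0.70 to 0.48) and 0.01 for any exposure (-0.52 to 0.55). Within the 3 arrays of highest top intensity the change was 0.36 at 1 hr and -0.091 at 2 hr, and within the other 5 it was 0.038 and -0.12. As a fold of the control level, the 2 hr interval ran from 0.615 to 1.40. The 2 hr arrays all read below the 1 hr arrays, with a log2 change of -0.25 that did not pass (limma, unadjusted p = 0.426, adjusted p = 1).

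**Figure D1:**
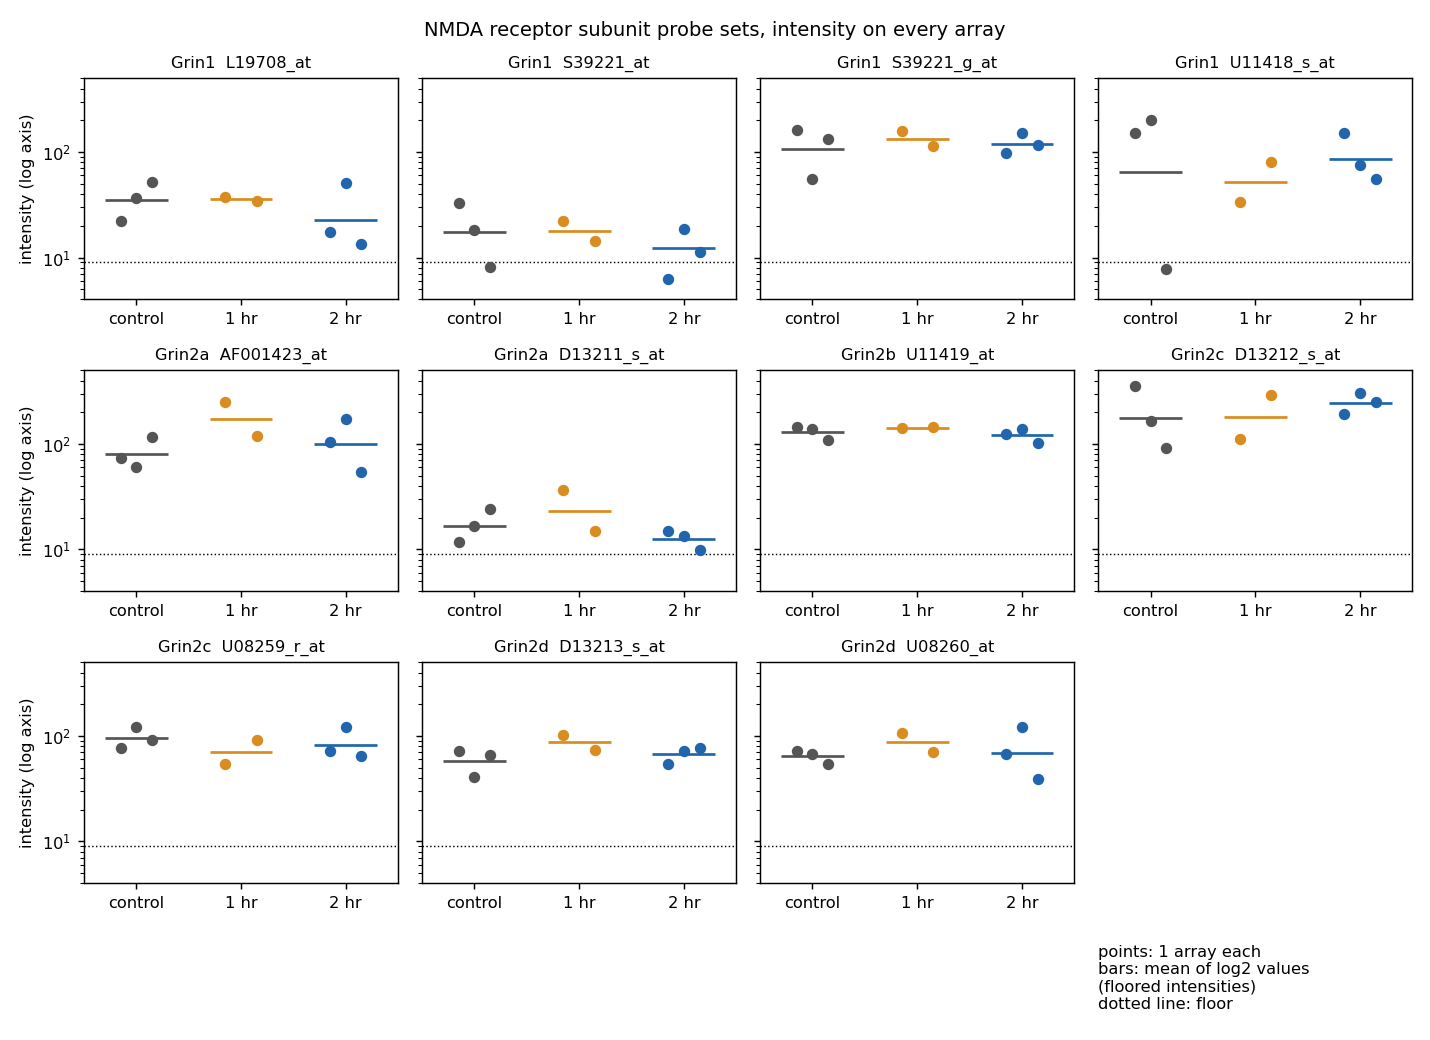
Intensity of the 11 NMDA receptor subunit probe sets on a log axis, 1 point per array, with bars at the mean of the floored log2 values of the control, 1 hr and 2 hr groups and a dotted line at the floor of 9.1. Grin2b (U11419_at) stays between 102.9 and 146 on all arrays, while Grin1 (U11418_s_at) runs from 7.7 to 200.9 with both extremes among the controls.

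Grin2c, the subunit of cerebellar granule cells, was read by a variable and a steadier probe set. D13212_s_at read 357.1, 164.3 and 92.3 in the controls, 112.6 and 288.8 after 1 hr, and 193.9, 306.7 and 252.6 after 2 hr. The controls covered the whole range of the exposed arrays. Mean log2 intensity was 7.46 ± 0.98 (SD, n = 3) in the controls, 7.49 ± 0.96 (SD, n = 2) after 1 hr and 7.95 ± 0.33 (SD, n = 3) after 2 hr. The 2 hr change was 0.49 (95% interval -0.65 to 1.63). It was 1.45 within the 3 arrays of highest top intensity (1 against 1) and 0.01 within the other 5 (2 against 2). Among the 3 arrays with a low 5S ribosomal RNA control reading it was -0.32, and among the others 1.59.

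The second Grin2c probe set, U08259_r_at, read 77, 122.7 and 90.9 in the controls, 54.8 and 91.6 after 1 hr, and 72.6, 120.6 and 64 after 2 hr. Its change from control had the opposite sign to that of D13212_s_at at 1 hr and at 2 hr.

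Grin2d, which gives the receptor its slowest closing, was read by 2 probe sets whose changes had the same sign in each comparison. U08260_at read 72.3, 67.8 and 54.8 in the controls, 106.4 and 71.1 after 1 hr, and 67.4, 121 and 39.4 after 2 hr. The 2 hr group held both the highest and the lowest of the 8 readings. D13213_s_at read 71.8, 40.8 and 66.6, then 101.4 and 74.4, then 54.3, 72.7 and 76.6. On this probe set the 1 hr arrays lay above all controls, at 1.50-fold the control level, a log2 change of 0.58 (95% interval -0.34 to 1.50) that did not pass (limma, unadjusted p = 0.187, adjusted p = 1). For U08260_at the change was 0.43 at 1 hr (95% interval -0.68 to 1.54) and 0.09 at 2 hr (95% interval -0.91 to 1.08). The 1 hr change was 0.14 without 1 hr replicate 1 and 0.72 without 1 hr replicate 2. It was 0.96 within the 3 arrays of highest top intensity (1 against 1) and 0.022 within the other 5 (1 against 2), and the 2 hr change was -0.48 and 0.37. The 2 hr change was -0.32 without 2 hr replicate 2 and 0.49 without 2 hr replicate 3. For D13213_s_at the 1 hr change was 0.61 within the 3 arrays of highest top intensity, 0.46 within the other 5, and 0.33 without control replicate 2.

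Across the family, no comparison separated the exposed from the control arrays by the test. With limma's moderated test adjusted over 7770 probe sets, 0 of the 11 passed an adjusted p of 0.05 after 2 hr, after 1 hr, for any exposure against control or for 2 hr against 1 hr. The background was the same, since 0% of all probe sets passed in each comparison. At an unadjusted p under 0.05 there were also 0 of 11 in each, against 1.79% of all probe sets after 2 hr and 2.68% after 1 hr, 2.21% with both exposures joined, and 2.77% between the exposures. For any exposure the change was 0.25 for Grin1 (95% interval -0.60 to 1.10), 0.71 for Grin2a (-0.27 to 1.68), 0.26 for Grin2c (-0.77 to 1.29) and 0.26 for Grin2d (-0.64 to 1.15). The smallest unadjusted p was 0.0689, for Grin2a (AF001423_at) after 1 hr.

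The directions were mixed after 2 hr, with 6 of the 11 changes above 0 and 5 below. After 1 hr 9 were above 0 and 2 below, and 8 of 11 were lower at 2 hr than at 1 hr. The 1 hr comparisons from both sides share the same 2 arrays. The median change of the 11 was 0.09 after 2 hr, 0.14 after 1 hr, 0.03 with any exposure and -0.34 between 2 hr and 1 hr. Over all probe sets the medians were 0.02, 0.05, 0.04 and -0.03. Groups without overlap were seen for 0 of 11 at 2 hr against control, where 5.44% of all probe sets had none, 2.9% higher and 2.55% lower. They were seen for 2 of 11 after 1 hr, Grin2a (AF001423_at) and Grin2d (D13213_s_at), both higher, against 7.54% of all probe sets higher and 5.11% lower. For 2 hr against 1 hr there was 1 of 11, Grin2b, lower, against 7.82% lower and 5.98% higher. For any exposure there were 0 of 11, against 1.93% of all probe sets, 0.927% higher and 1% lower.

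**Figure D2:**
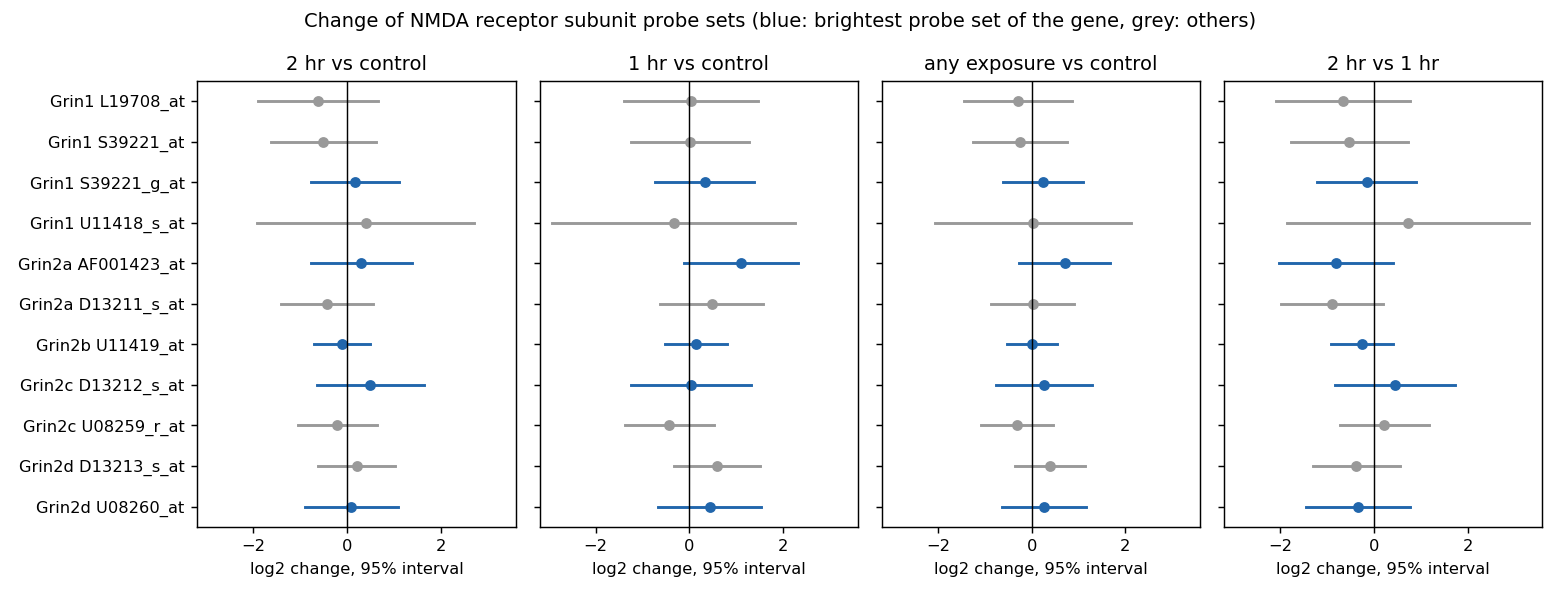
Log2 change of each NMDA receptor subunit probe set in the 4 comparisons, with the 95% interval from limma, for the brightest probe set of each gene (blue) and the others (grey). Every interval crosses 0, the narrowest are those of Grin2b (U11419_at) and the widest those of Grin1 (U11418_s_at).

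The sensitivity of the test bounds what these values can show. In simulated arrays with the spread of these samples, limma found 40.7% of the probe sets given a log2 change of 2 in the 2 hr comparison and 26.2% in the 1 hr comparison. Of those given a log2 change of 1 it found 1.95% and 0.8%. At this number of arrays a log2 change of 1 was mostly not detectable for a probe set drawn at random. These shares are means over all probe sets and not figures for a single subunit, since the subunit probe sets differed in spread. For Grin2b (U11419_at), the steadiest, the 2 hr interval of -0.70 to 0.48 did not reach a log2 change of 1.

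Whether one subunit changed unlike another was asked within arrays, which removes array-wide scaling. The log2 difference of each GluN2 gene from Grin1, and of Grin2a from Grin2b, was taken on each array for the brightest probe set. Its level depends on the probes, and only its change between groups is read. Grin2a minus Grin2b was -0.99, -1.20 and 0.09 in the controls, 0.84 and -0.29 after 1 hr, and -0.23, 0.30 and -0.92 after 2 hr. The groups overlapped. The mean of the 5 exposed arrays exceeded that of the 3 controls by 0.64 (exact two-sided permutation test, p = 0.286, adjusted p = 1 over 20 tests).

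Grin2c minus Grin1 was nearly equal on the 2 hr arrays, at 0.99, 1.01 and 1.11. It was 1.13, 1.57 and -0.54 in the controls and -0.49 and 1.35 after 1 hr, so the 2 hr values lay within both other groups. Grin2a minus Grin1 was higher by 0.39 on the exposed arrays, Grin2b minus Grin1 was -0.25 from control, Grin2c minus Grin1 0.07 and Grin2d minus Grin1 -0.01. All 20 tests gave an adjusted p of 1, and the smallest unadjusted p was the one given for Grin2a minus Grin2b. An exact test of 3 against 3 arrays cannot go below 0.1, one of 2 against 3 not below 0.2, and one of 5 against 3 not below 0.0357. With these limits none of the 20 tests could pass after adjustment whatever the values. No conclusion is therefore drawn from their adjusted p.

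**Figure D3:**
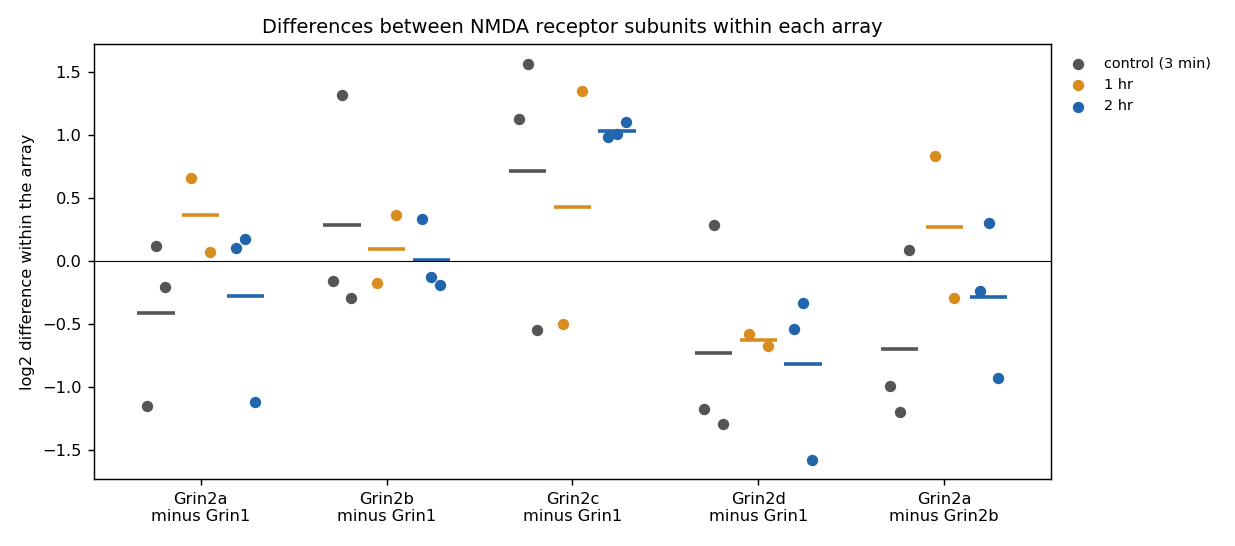
Log2 difference between NMDA receptor subunits within each array, 1 point per array, with bars at the group means (control, n = 3, after 1 hr, n = 2, after 2 hr, n = 3). The groups overlap for each of the 5 differences, and Grin2c minus Grin1 runs from 0.99 to 1.11 on the 2 hr arrays against -0.54 to 1.57 on the control arrays.

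Probe sets of 1 gene did not follow each other closely over the 8 arrays. For the 9 pairs of probe sets of the same gene Pearson's r ran from -0.46 to 0.70 with a median of 0.19. The highest was that of the Grin2a pair (r = 0.70, Spearman's rho = 0.53, exact permutation p = 0.0511 and 0.186, adjusted p = 0.324 and 0.565 over 19 pairs). It was 0.06 without the 2 arrays farthest from the median of AF001423_at, a choice that narrows the range and can itself lower r. The 4 probe sets of Grin1 gave r between -0.46 and 0.39.

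Between genes, with the brightest probe set of each, r ran from -0.32 to 0.78 over 10 pairs. Grin2a and Grin2d had r = 0.78 (Spearman's rho = 0.69, exact permutation p = 0.0251 and 0.0694, adjusted p = 0.311 and 0.565), and 0.53 without the 2 farthest arrays. Grin2b and Grin2d had r = 0.76 (Spearman's rho = 0.79, exact permutation p = 0.0328 and 0.0279, adjusted p = 0.311 and 0.531), and 0.19 without the 2 farthest arrays. Of the 19 pairs 0 passed after adjustment and 2 had an unadjusted p under 0.05. The arrays of highest top intensity number 3 and the others 5, too few for a correlation within either.

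The subunit probe sets differed in their spread within groups. Pooled over the 3 groups, the SD of log2 intensity was 0.20 for Grin2b (U11419_at), and 5.15% of all probe sets tested had a smaller one. It was 1.68 for Grin1 (U11418_s_at), where 99.6% had a smaller one. The other 9 probe sets lay between 0.36 and 0.78, against a median of 0.51 over all probe sets tested.

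**Figure D4:**
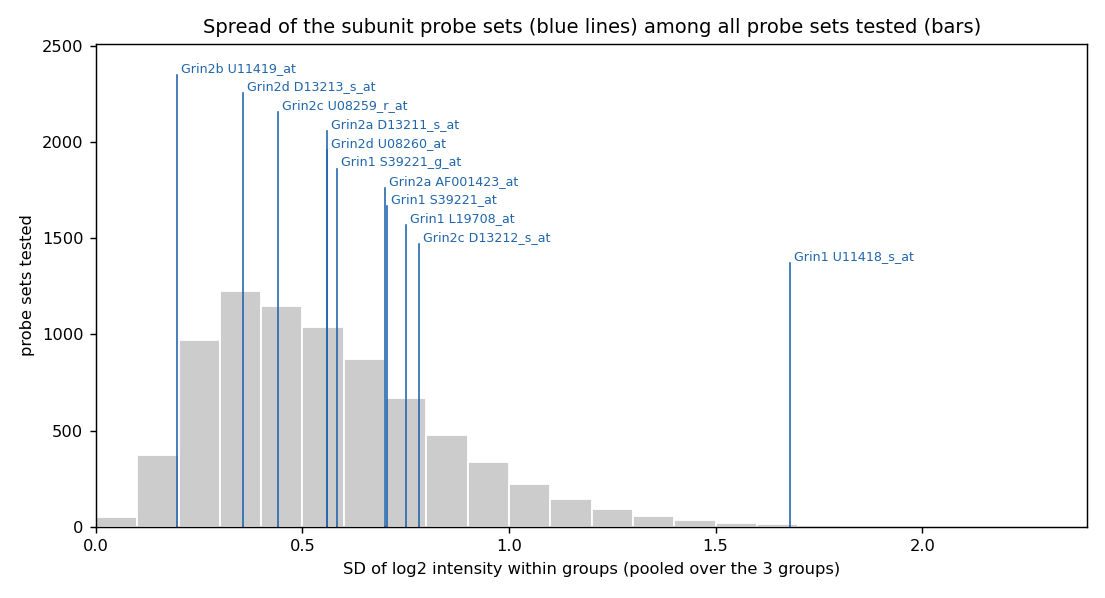
Number of probe sets by the SD of log2 intensity within groups, pooled over the control, 1 hr and 2 hr arrays (bars), with the 11 NMDA receptor subunit probe sets as blue lines. Grin2b (U11419_at) at 0.20 lies near the low end and Grin1 (U11418_s_at) at 1.68 in the upper tail.

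The probe sets most like each subunit were found by Pearson's r over the 8 arrays among 4670 probe sets above the floor on all arrays, as a description. For Grin2b they were Scarb2 (r = 0.96), a lysosomal membrane protein, Khdrbs1 (r = 0.94), an RNA-binding protein, and Stmn4 (r = 0.94), a neuronal stathmin. For Grin2c they were Mybbp1a (r = 0.99), Idh2 (r = 0.98), the mitochondrial isocitrate dehydrogenase, and Mpst (r = 0.96). Unc5b (r = 0.92), a netrin receptor, was nearest to Grin1, Muc13 (r = 0.96), a mucin, to Grin2a and Lss (r = 0.96), the lanosterol synthase, to Grin2d. Next came Insig1 (r = 0.92) and Slc4a4 (r = 0.91) for Grin1, and Txn2 and Akr7a3 (both r = 0.93) for Grin2a. For Grin2d they were Slc10a2 (r = 0.94) and Mapk14 (r = 0.93). Taking the highest of 4670 values over 8 arrays raises r by itself. Per subunit, 4 to 39 probe sets had r over 0.9.

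Genes that act with the receptor gave the same result in the test. Of 28 scaffold and partner genes 21 were measured, of 27 kinase, phosphatase and calcium signalling genes 23, and of 15 genes for glycine and D-serine handling 5. In limma 0 of them passed in any of the 4 comparisons. At an unadjusted p under 0.05 there were 2 of the 21 scaffold genes after 2 hr and 1 for any exposure, and 0 of the others. Of all probe sets, 1.79% and 2.21% passed that limit in these comparisons. After 2 hr 8 scaffold genes were above 0 and 13 below, with a median change of -0.13 against 0.02 over all probe sets. The signalling genes were 9 above and 14 below, with a median of -0.05, and the co-agonist genes 3 above and 2 below, with a median of 0.09.

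From each list the 3 genes with the smallest unadjusted p in any of the 4 comparisons are named. That choice favours groups that do not overlap, so the shares over all probe sets are no measure of how rare these genes are. Dlgap4 (U67140_at), which binds the scaffold protein PSD-95, read 195.1, 224.9 and 143 in the controls and 286, 445.3 and 394.1 after 2 hr. These groups did not overlap, as for 2.9% of all probe sets in the higher direction, with a log2 change of 1.00 (SE 0.306) that did not pass (limma, unadjusted p = 0.00894, adjusted p = 1). Homer2 (AB007689_at), a scaffold that links metabotropic glutamate receptors to the postsynaptic density, read 50.9, 57.5 and 85.4 against 41.4, 37.7 and 24.4, a change of -0.90 (SE 0.403) that was -0.45 without the 3 arrays of highest top intensity. The Homer2 groups did not overlap either, as for 2.55% of all probe sets in the lower direction. Dlg4 (M96853_at), which encodes PSD-95 itself, read 390.6, 485 and 337.9 in the controls, 629.4 and 502.3 after 1 hr and 530.7, 545.8 and 623.5 after 2 hr. All 5 exposed arrays lay above the 3 controls, where 0.927% of all probe sets were higher without overlap, and the change of 0.49 (SE 0.228) did not pass (limma, adjusted p = 0.999). Without the 3 arrays of highest top intensity it was 0.26.

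Among the signalling genes the values nearest the threshold were at 1 hr. Prkcb (X04139_s_at), a protein kinase C, read 1028.4, 1586.7 and 605.6 in the controls and 519.2 and 524.3 after 1 hr, and Cdk5 (L02121_at), a kinase that phosphorylates GluN2A, read 274.2, 316.4 and 330 against 168.1 and 252.1. Their changes were -0.93 (SE 0.449) and -0.57 (SE 0.276), in groups that did not overlap, as for 5.11% of all probe sets in the lower direction. The Prkcb change was -0.60 without control replicate 2 and -0.28 with the 5S reading as a block. The Cdk5 change was -0.28 without 1 hr replicate 1, -0.86 without 1 hr replicate 2 and -0.22 without the 3 arrays of highest top intensity. Camk2g (S71570_s_at), a calcium/calmodulin kinase chain, read 294.7, 83.7 and 191.8 in the controls, 263.6 and 368.8 after 1 hr and 106.4, 195 and 191.3 after 2 hr. It differed by -0.98 (SE 0.511) between 2 hr and 1 hr, in groups that did not overlap, as for 7.82% of all probe sets in the lower direction. The controls overlapped both exposed groups. Of the co-agonist genes, Slc6a9 (L13600_at), the glycine transporter GlyT1, differed by 0.64 (SE 0.502) between 2 hr and 1 hr and by -0.038 without 1 hr replicate 1, Psat1 by -0.30 (SE 0.341) and Phgdh by 0.23 (SE 0.301) between 2 hr and control. For these 3 genes the groups overlapped. Over the alternatives the Psat1 change ran from -0.57 to -0.11 and the Phgdh change from 0.0037 to 0.35.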

How the data were processed

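The authors deposited 1 linear intensity per probe set and array, with 8799 probe sets on each of 8 arrays. Software, scaling target and detection: not given in the sources used here. Trimmed means (2% at each end) differed little between arrays, so the columns were used as deposited. Median intensity ran from 41.45 to 49.55, and the share of probe sets above the floor from 77.8% to 85.0%. Both were highest on 1 hr replicate 1. The 59 control probe sets were left out. Values under 9.1, the 20th percentile, were set to it before log2 was taken. Probe sets above the floor on at least 2 arrays were kept, 7770 in all. The floor understates changes of dim probe sets, and precision is limited by how many arrays there are. Of 8740 probe sets, 7006 had 1 gene symbol, 308 several and 1426 none, and 6985 of those with 1 symbol matched a RefSeq gene number (GRCr8), used to update names only.

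Each comparison was fitted with limma 3.58.1 in R 4.3.3 (lmFit, contrasts.fit, eBayes with an intensity trend) on all 8 arrays, two-sided, with Benjamini-Hochberg adjustment over 7770 probe sets and a threshold of 0.05. Any exposure averaged both exposed groups' means in limma, and was the mean of the 5 exposed arrays in the within-array tests. The brightest probe set by mean log2 value stood for a gene. All subunit probe sets are named, from each list the 3 genes with the smallest unadjusted p, and the probe sets most like each subunit by Pearson's r. Changes of the other subunit probe sets are given by sign, or by value where the groups did not overlap. The members and lists were chosen with earlier results of these data known. The limma steps were tested on 20 simulated data sets with 200 changed probe sets. Arrays correlated in pairs at 0.895 to 0.974 and no pair shared over 70 identical values, so all were counted as separate samples. Alternatives covered normalization, floor, pseudocount, filter, variance model, blocks and left-out arrays.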

Additional observations from a re-analysis of the deposited data

How the results depend on the processing

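No subunit probe set passed limma's test in any comparison under any of the alternatives that kept at least 2 arrays in each group. No correlation passed either. The within-array tests could not pass after adjustment whatever the values, so no conclusion is drawn from their adjusted p. The directions are less stable: of 41 changes and within-array differences, 14 kept their sign in every alternative and 27 did not. With the mean of all kept probe sets of a gene the 2 hr change turned to -0.14 for Grin1 and -0.058 for Grin2a, the 1 hr change of Grin2c to -0.19, and the change for any exposure to -0.065 for Grin1 and -0.025 for Grin2c. Likewise Grin2b minus Grin1 turned to 0.031 at 2 hr, 0.13 at 1 hr and 0.069 for any exposure, and Grin2d minus Grin1 to 0.29 at 2 hr and 0.37 for any exposure. The Grin2c change at 1 hr was -0.0029 with quantile normalization and -0.066 with median centring, and the Grin2b change for any exposure was -0.038 and -0.076. With a pseudocount of 16, Grin2d minus Grin1 for any exposure was 0.0079. Without the 3 arrays of highest top intensity Grin2b read -0.040 for any exposure, and 2 hr against 1 hr was 0.10 for Grin1, 0.17 for Grin2a, -0.24 for Grin2c and 0.34 for Grin2d. With the 5S ribosomal RNA control reading as a block, 2 hr against 1 hr was 0.0020 for Grin1. The causes were not tested. A fit of only the groups compared was not run for any exposure, where it holds all arrays.

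Deviations of same-numbered arrays from their group means correlated between -0.327 and 0.284, and those of differently numbered arrays between -0.356 and 0.395. With 2 or 3 arrays per group these values are partly fixed by the centring. The check therefore shows no pairing by replicate number but cannot exclude one. With the replicate block 0 subunit probe sets passed in any comparison, the Grin2c change at 1 hr was -0.19 and the Grin2b change for any exposure -0.046.

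Leaving out each array in turn, where the lone 1 hr array is assumed to vary like the others, gave these ranges where the sign turned. At 2 hr against control they were -0.30 to 0.48 for Grin1, -0.091 to 0.74 for Grin2a, -0.23 to 0.0070 for Grin2b and -0.32 to 0.49 for Grin2d. At 1 hr they were -0.14 to 0.63 for Grin1 and -0.64 to 0.72 for Grin2c. For any exposure they were -0.22 to 0.56 for Grin1, -0.11 to 0.096 for Grin2b and -0.20 to 0.78 for Grin2c. For 2 hr against 1 hr they were -0.40 to 0.086 for Grin1, -0.23 to 1.13 for Grin2c and -0.76 to 0.054 for Grin2d. Within arrays at 2 hr, the ranges were -0.24 to 0.55 for Grin2a minus Grin1, -0.57 to 0.23 for Grin2b minus Grin1, -0.31 to 0.74 for Grin2c minus Grin1 and -0.37 to 0.42 for Grin2d minus Grin1. At 1 hr they were -0.48 to 0.32 for Grin2b, -1.21 to 0.63 for Grin2c and -0.18 to 0.61 for Grin2d, each minus Grin1. For any exposure they were -0.54 to 0.27, -0.56 to 0.50 and -0.30 to 0.50 for the same 3. For 2 hr against 1 hr they were -0.36 to 0.18, -0.31 to 1.53 and -0.43 to 0.19, and -1.12 to 0.0042 for Grin2a minus Grin2b. The alternatives of the correlations and of the partner gene lists were chosen after seeing the data. Under the latter, no list gene passed, and of the 9 named partner genes 1 changed sign, Slc6a9 between 2 hr and 1 hr, with a range of -0.038 to 1.31 when single arrays were left out.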
